A study of Mus musculus with 33 samples.

Results

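The 10 genes described here are Trp53, which encodes the transcription factor p53, the p53 target genes Cdkn1a, Mdm2, Ccng1, Trp53inp1, Bbc3, Bax, Sesn2 and Zmat3, and Cdkn2a, an arrest gene that acts upstream of p53. They were set as a list of gene symbols, with earlier results of these data known. All 10 of them were found among the 55487 genes of the count tables, and all 10 passed the filter on low counts in every comparison.

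RNA-seq was available for 33 libraries of C57BL/6 mouse embryonic stem cells (ESCs) in 11 conditions, with 3 libraries each. HP1α, HP1β and HP1γ are paralogous proteins that bind methylated H3K9 in heterochromatin, and SETDB1 is an enzyme that places this mark. The mutants were HP1αKO, HP1βKO, HP1γKO, HP1β/αDKO, HP1β/γDKO and HP1γ/αDKO ESCs, which were constitutive CRISPR/Cas9 knockouts expanded from isolated clones. HP1β/γ/αTKO cells were made by Cre in a line that already lacked HP1α and HP1β and carried floxed HP1γ alleles, and SETDB1KO cells were made by Cre from SETDB1FF cells, whose Setdb1 alleles were floxed. Per the study, RNA of HP1β/γ/αTKO cells was taken a few days after Cre transfection. The study reports much apoptosis and arrest in G1 in these cells. The part of this state in the values below was not tested. WT cells came as 2 sets, called set A (library titles NK) and set B (titles WT). In the deposited tables set A was paired with the single mutants, HP1β/αDKO and HP1β/γ/αTKO, and set B with the other DKO cells. The study's text names another control for HP1β/γ/αTKO, the floxed parental line with a control vector, which was not analysed here. A comparison of HP1β/γ/αTKO with set A therefore also holds the loss of HP1α and HP1β and any difference between the lines, and HP1β/αDKO ESCs were used as a further comparison. No group is labelled as Cre-treated without a deletion. Lines were grown on embryonic fibroblast feeders, which were removed by attachment to the dish before use, and the labels do not say whether libraries of a group came from separate clones, so p values measure the spread between these libraries.

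p53 is kept low in unstressed cells by MDM2, a ubiquitin ligase whose gene is itself a p53 target, and is controlled mainly at the level of the protein. When p53 is stabilized it activates genes for arrest, apoptosis, repair and metabolism. Cdkn1a encodes p21, an inhibitor of cyclin-dependent kinases, and Cdkn2a encodes p16Ink4a, which inhibits CDK4 and CDK6, and p19Arf, which inhibits MDM2. ESCs have a short G1 phase, low p21 and little Cdkn2a mRNA.

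Total counts ran from 17330936 to 25743149 per library. The targeted mRNAs were lower in their mutants but were not lost, for example Setdb1 at 68.4 to 71.9 CPM (counts scaled to library size) in SETDB1KO cells against 129.9 to 135.1 in SETDB1FF cells, and Cbx3, the gene of HP1γ, at 61.7 to 66.2 CPM in HP1β/γ/αTKO cells against 167.1 to 202.6 in HP1β/αDKO cells. HP1γ/αDKO replicate 2 stood apart. The chi-square per gene between it and the other 2 libraries of its group was 122 and 114, against 2.53 between those 2 libraries, and between 1.89 and 11.3 for all pairs of the other conditions. Cbx5, the gene of HP1α, spanned 85.1 to 181.7 CPM in this group. The 10 ESC markers summed to between 3727 and 4313 CPM in the single mutants, HP1β/αDKO, HP1β/γDKO and both WT sets, to 1548 to 1600 in HP1β/γ/αTKO cells and to 6129 to 8845 in HP1γ/αDKO cells. They summed to 6694 to 6727 CPM in SETDB1FF cells and 4704 to 4754 in SETDB1KO cells. The single markers did not all follow these sums. At an adjusted p under 0.05 in edgeR, 7 fell and 1 (Esrrb) rose in HP1β/γ/αTKO cells against set A. Of all genes 39.9% fell and 41.7% rose there. In SETDB1KO cells 8 fell and 2 (Zfp42 and Sox2) rose against SETDB1FF cells, where 38.8% and 40.2% of all genes did. The 14 feeder fibroblast markers summed to between 20.1 and 168 CPM over all libraries. In bulk RNA, fewer cells of a type and less RNA per cell cannot be told apart.

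Promoter sequences were set beside the levels, since these genes are grouped by the factor that binds them. RefSeq (GRCm38.p6) gave windows from 250 bases before to 50 bases after an annotated start for 8 of the 10 genes. The windows were searched for exact matches to the p53 consensus decamer, which is its own reverse complement, so that each match lies on both strands. A full p53 site was taken as a pair of decamers with at most 13 bases between them. At least 1 decamer was present in 8.36% of all 32851 windows, a full site with no mismatch in 0.0731% and one with at most 1 mismatch in 1.09%. Of the 12 windows of the 8 genes, 5 held a decamer, 1 window each of Trp53, Cdkn1a, Mdm2, Ccng1 and Bax. The windows of Cdkn1a, Mdm2, Ccng1 and Bax are shown because these are the p53 targets among the 10 genes whose windows held a decamer. The decamers are in capitals.
Cdkn1a, chr17:29090729-29091028, plus strand: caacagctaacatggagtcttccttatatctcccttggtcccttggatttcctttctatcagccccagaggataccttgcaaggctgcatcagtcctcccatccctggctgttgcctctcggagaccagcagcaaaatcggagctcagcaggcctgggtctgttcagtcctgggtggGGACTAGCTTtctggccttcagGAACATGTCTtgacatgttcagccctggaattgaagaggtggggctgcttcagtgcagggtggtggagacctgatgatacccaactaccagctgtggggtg
Ccng1, chr11:40755237-40755536, minus strand: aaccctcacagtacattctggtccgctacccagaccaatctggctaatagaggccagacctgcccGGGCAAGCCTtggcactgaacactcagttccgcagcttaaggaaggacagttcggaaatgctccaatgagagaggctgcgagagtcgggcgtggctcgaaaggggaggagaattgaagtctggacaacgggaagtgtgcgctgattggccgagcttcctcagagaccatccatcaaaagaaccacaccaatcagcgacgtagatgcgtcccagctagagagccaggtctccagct
Bax, chr7:45466849-45467148, minus strand: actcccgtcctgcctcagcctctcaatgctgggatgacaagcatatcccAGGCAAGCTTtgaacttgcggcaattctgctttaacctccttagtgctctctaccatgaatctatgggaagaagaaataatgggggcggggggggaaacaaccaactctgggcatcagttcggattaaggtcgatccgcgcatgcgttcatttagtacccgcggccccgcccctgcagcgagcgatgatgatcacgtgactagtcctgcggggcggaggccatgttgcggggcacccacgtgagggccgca
Mdm2, chr10:117710709-117711008, minus strand: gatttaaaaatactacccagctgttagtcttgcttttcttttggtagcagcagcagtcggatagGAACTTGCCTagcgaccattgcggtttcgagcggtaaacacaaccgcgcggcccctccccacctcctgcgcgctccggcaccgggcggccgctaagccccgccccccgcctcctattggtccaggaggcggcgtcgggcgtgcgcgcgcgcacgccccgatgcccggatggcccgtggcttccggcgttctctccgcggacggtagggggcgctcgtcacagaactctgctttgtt

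The Cdkn1a window, at the upstream one of 2 annotated starts, held 2 decamers whose leftmost bases lay 73 and 51 bases before the start, 12 bases apart from end to start, which is a full site with no mismatch. The window of the other Cdkn1a start held none. The Ccng1 decamer, 185 bases before the start, stood in a window whose best full site had 1 mismatch, and so did the Bax decamer, 201 bases before the start. The single Mdm2 decamer, 186 bases before the start, had no close partner, and its best full site had 4 mismatches. The p53-responsive promoter of Mdm2 is known to lie in its intron and is outside this window. The windows of Bbc3, Sesn2 and Cdkn2a held no decamer, which says only that these letters are not in these windows. A match describes the sequence and not binding.

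The genes differed widely in abundance. In WT set A, Trp53 had the highest level per length, at 321.1 ± 7.63 TPM (a level scaled to transcript length and library, ± SD, n = 3), followed by Bax at 272 ± 1.64 and Ccng1 at 89.6 ± 4.34 TPM. Mdm2 was at 63.2 ± 1.9, Sesn2 at 51.8 ± 0.637, Trp53inp1 at 47.2 ± 1.78, Zmat3 at 27.4 ± 0.942, Bbc3 at 26.9 ± 2.33, Cdkn1a at 23.2 ± 0.965 and Cdkn2a at 9.83 ± 1.24 TPM. Zmat3 and Bbc3 overlapped between libraries, whereas every other neighbour in this order was separated. The spread across conditions was largest for Cdkn2a, whose highest condition mean in CPM was 15 times the lowest, and smallest for Zmat3 (1.6) and Bax (1.73). Trp53inp1 (5.6 times), Mdm2 (5.37), Bbc3 (4.72) and Cdkn1a (4.56) lay between. The lowest means of Trp53inp1, Mdm2 and Bbc3 were those of HP1γ/αDKO ESCs. Without replicate 2 of that group, which stands apart, these spans became 4.77, 5.13 and 5.43, so their order is not fixed. The highest means of Cdkn2a and Bax and the lowest of Zmat3 were also those of this group. Without replicate 2 their spans became 14.4, 1.7 and 1.5. The lowest Cdkn2a mean, in SETDB1FF cells, rested on few reads.

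**Figure D1:**
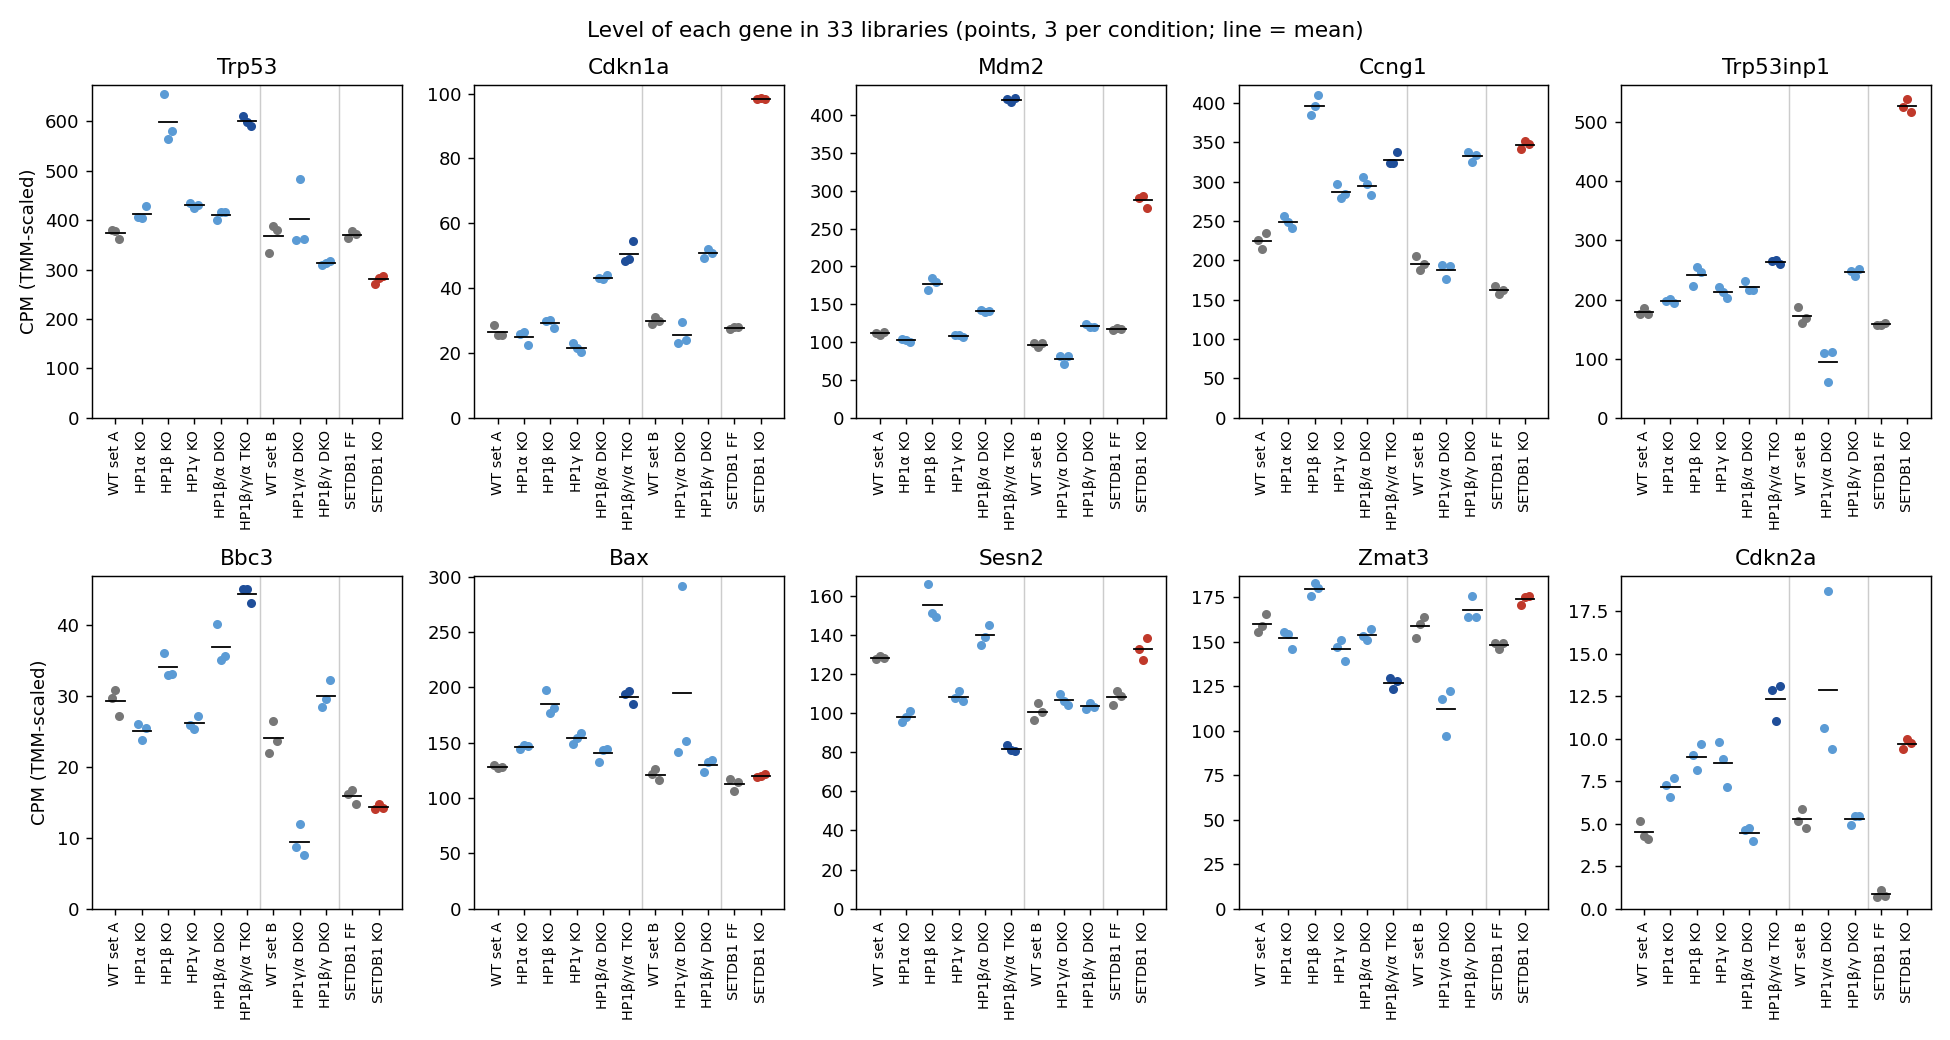
CPM of the 10 genes in each of 33 libraries by condition, with a line at each mean and grey lines between the sets that share a control. Cdkn1a and Trp53inp1 stand highest in SETDB1KO cells (means 98.5 and 527.2 CPM), Mdm2 in HP1β/γ/αTKO cells (420.4 CPM), and HP1γ/αDKO replicate 2 lies apart for Bax (291.7 CPM) and Cdkn2a (18.7 CPM).

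In SETDB1KO cells Cdkn2a, Cdkn1a, Trp53inp1, Mdm2 and Ccng1 were deregulated (an adjusted p under 0.05 with a log2 fold change beyond 1 in either direction, as the study defined it), and all 5 were up. Bax, Sesn2 and Zmat3 rose less, Trp53 fell after TMM scaling, and Bbc3 did not pass the test. In all, 8 of 10 genes rose and 1 fell at an adjusted p under 0.05, where 40.2% of the 16457 genes tested rose and 38.8% fell. Of all genes, 29.9% were deregulated, against 5 of these 10. The median log2 fold change of the 10 was 0.69 and that of all genes 0.01.

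Cdkn1a (ENSMUSG00000023067, chromosome 17, 29090976 to 29100727) had 98.4, 98.8 and 98.3 CPM in the SETDB1KO libraries and 27.4, 28.1 and 27.9 CPM in the SETDB1FF libraries. The groups were far apart, and the log2 fold change was 1.82 (SE, the standard error, 0.039, adjusted p = 3.01e-17 by the quasi-likelihood test of edgeR, Benjamini-Hochberg adjusted over all genes, as throughout). Trp53inp1 (ENSMUSG00000028211), which encodes a p53 cofactor in apoptosis and autophagy, had 526, 538.9 and 516.6 CPM against 157.5, 156.6 and 160.9 CPM. No library of one group reached the other, and the log2 fold change was 1.73 (SE 0.024, adjusted p = 7.44e-20). Mdm2 (ENSMUSG00000020184) had 290.8, 293.6 and 277.4 CPM against 116.4, 118.9 and 117.5 CPM, a log2 fold change of 1.28 (SE 0.029, adjusted p = 5.06e-17). Ccng1 (ENSMUSG00000020326), which encodes cyclin G1, had 341.7, 351 and 347.8 CPM against 166.8, 157 and 162.6 CPM, a log2 fold change of 1.09 (SE 0.025, adjusted p = 8.52e-17). The 3 SETDB1KO libraries lay above the 3 SETDB1FF libraries for both genes.

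Cdkn2a (ENSMUSG00000044303, chromosome 4, 89274471 to 89294653) rested on 14, 20 and 13 reads in the SETDB1FF libraries and on 186, 209 and 205 in the SETDB1KO libraries. In CPM these were 0.697, 1.12 and 0.76 against 9.37, 10 and 9.77, an 11.2-fold rise (log2 fold change 3.49, SE 0.18, adjusted p = 4.86e-12). SETDB1FF cells had the lowest Cdkn2a level of the 11 conditions, and its range did not reach that of any other condition. The level in SETDB1KO cells lay within the range of the HP1 mutants. The counts do not separate the transcripts of p16Ink4a and p19Arf. The 14 feeder markers summed to 20.1 to 21.1 CPM in SETDB1KO cells and 21.5 to 22.3 CPM in SETDB1FF cells, but the markers moved in different directions. Thy1 had a mean of 0.745 against 4.96 CPM and Col1a1 0.977 against 2.11 CPM, while Fbn1 had 12.2 against 9.97 CPM and Col6a1 2.28 against 0.236 CPM. The part of feeder cells in the Cdkn2a values was not tested.

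Trp53 itself (ENSMUSG00000059552) had 271.2, 283 and 287.3 CPM in SETDB1KO cells and 363.3, 377 and 371 CPM in SETDB1FF cells, a log2 fold change of −0.41 (SE 0.025, adjusted p = 8.46e-11). This fall depended on the scaling. In the deposited TPM, Trp53 was at 314.2 to 334.4 in SETDB1KO cells and 301.5 to 312.7 in SETDB1FF cells, higher without overlap (log2 difference 0.08, adjusted p = 0.0386 by limma on log2(TPM + 1)). The median of all genes was 0.40 on that scale, and relative to it Trp53 was at −0.32. The apoptotic targets had small values after TMM scaling. Bbc3 (ENSMUSG00000002083), which encodes PUMA, had 14.1, 14.8 and 14.2 CPM against 16.2, 16.8 and 14.8 CPM, and these ranges overlapped (log2 fold change −0.16, adjusted p = 0.065). Bax (ENSMUSG00000003873), which encodes a pore-forming protein of mitochondria, rose by 0.08 on the log2 scale (adjusted p = 0.0334). This call was lost without SETDB1KO replicate 1 or 3 (0.09 and 0.08) or SETDB1FF replicate 2 or 3 (0.04 and 0.08), and Bbc3 passed without SETDB1FF replicate 3 (−0.22, adjusted p = 0.0213). In TPM Bbc3 was at 17.3 to 21.64 against 12.41 to 14.49 and Bax at 320.6 to 331.8 against 213.8 to 232.6, both apart and higher in SETDB1KO cells (0.48, adjusted p = 0.00299, and 0.53, adjusted p = 1.27e-05). Relative to the median of all genes in TPM these differences were 0.08 and 0.13. Sesn2, a sensor of leucine and brake on mTORC1, and Zmat3, an RNA-binding protein, had log2 fold changes of 0.29 and 0.22.

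In HP1β/γ/αTKO cells Mdm2 had the largest log2 fold change of the 10 genes. Against WT set A, 8 of the 10 genes rose and 2 fell, where 41.7% of the 17501 genes tested rose and 39.9% fell. Mdm2 and Cdkn2a were deregulated, 2 of 10, against 42.3% of all genes. The median log2 fold change was 0.56 for the 10 genes and 0.04 for all genes.

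Mdm2 had 421.9, 416.9 and 422.3 CPM in the HP1β/γ/αTKO libraries and 111.7, 110.1 and 113 CPM in WT set A, a 3.7-fold rise (log2 fold change 1.89, SE 0.027, adjusted p = 3.16e-21). This was the highest Mdm2 level of the 11 conditions, and no neighbours in the order of Mdm2 levels overlapped. Cdkn2a had 12.9, 11.1 and 13.1 CPM against 5.18, 4.25 and 4.09 CPM, a log2 fold change of 1.43 (SE 0.14, adjusted p = 1.13e-08). Cdkn1a had 48.5, 48.9 and 54.6 CPM against 28.8, 25.5 and 25.6 CPM, a log2 fold change of 0.90 (SE 0.065, adjusted p = 1.68e-10). The HP1β/γ/αTKO libraries lay above all of set A for both inhibitors. Trp53 mRNA rose, with 609.8, 599 and 590.3 CPM against 379.5, 377 and 362.6 CPM (log2 fold change 0.66, SE 0.024, adjusted p = 3.46e-15).

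The remaining rises were 1.43- to 1.49-fold. Ccng1, Trp53inp1, Bbc3 and Bax had log2 fold changes of 0.52, 0.53, 0.57 and 0.55, with adjusted p from 4.15e-12 to 4.02e-08. Bbc3 had its highest level of the 11 conditions here, at 45.1, 45.2 and 43.1 CPM against 29.7, 30.9 and 27.2 CPM in set A. Sesn2 (ENSMUSG00000028893) and Zmat3 (ENSMUSG00000027663) went the other way. Sesn2 had 84, 81 and 80.7 CPM against 127.8, 129.3 and 128.1 CPM (log2 fold change −0.68, SE 0.037, adjusted p = 2.47e-12), and was lower here than in every other condition. Zmat3 had 129.7, 123.3 and 128.1 CPM against 155.3, 158.6 and 165.5 CPM (log2 fold change −0.36, SE 0.036, adjusted p = 2.44e-08). In TPM the sign for Zmat3 turned (0.18, adjusted p = 0.0797), where the median of all genes was 0.31, while Sesn2 stayed lower (−0.34). Cdkn1a and Bbc3 passed the fold threshold in TPM (1.31 and 1.12), so that 4 of the 10 genes were deregulated. On that scale 5166 of the 17501 genes tested were deregulated.

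HP1β/αDKO ESCs are the genotype closest to HP1β/γ/αTKO cells. Besides the loss of HP1γ, the comparison with them holds Cre treatment, its timing and any difference between the lines. These cannot be told apart. Again 8 genes rose and 2 fell, where 41.3% and 39.3% of 17425 genes did so, and 2 of 10 were deregulated against 41.4% of all genes. The median was 0.23 for the 10 genes and 0.03 for all genes. Mdm2 (log2 fold change 1.54, SE 0.032, adjusted p = 4.11e-16) and Cdkn2a (1.44, SE 0.13, adjusted p = 4.85e-08) rose. The Mdm2 value was smaller than the 1.89 against set A, and Mdm2 was already raised in HP1β/αDKO ESCs (0.33 against set A, SE 0.039, adjusted p = 2.09e-06). Cdkn1a rose by only 0.20 (adjusted p = 0.00533) and Ccng1 by 0.12 (adjusted p = 0.00606). HP1β/αDKO ESCs had 43, 42.7 and 43.9 CPM of Cdkn1a and a mean of 295 CPM of Ccng1. Without HP1β/αDKO replicate 3 the Ccng1 value was 0.07 (adjusted p = 0.095). Sesn2 and Zmat3 had log2 fold changes of −0.80 and −0.31. With library totals in place of TMM scaling, the median of all genes moved from 0.03 to 0.31 and the Zmat3 value became −0.03 (adjusted p = 0.508), which is below that median. In TPM, with a median of 0.33, Zmat3 was at 0.24 (adjusted p = 0.033) and Cdkn1a at 0.70.

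**Figure D2:**
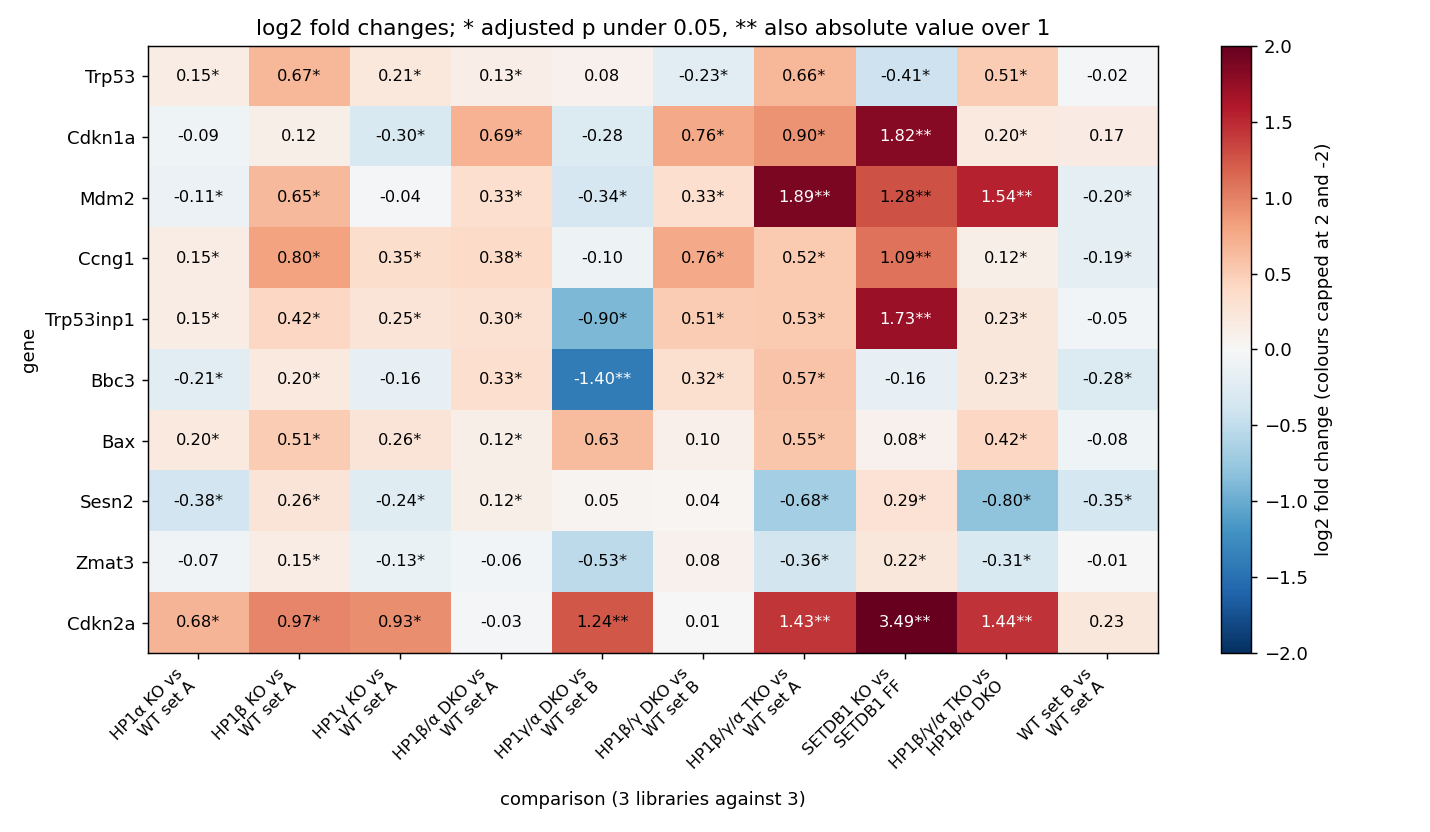
log2 fold changes of the 10 genes (rows) in the 10 comparisons (columns), coloured from blue (lower) to red (higher) and capped at 2. The SETDB1KO column holds 5 genes with both marks, led by Cdkn2a at 3.49, and the single HP1 mutants hold none.

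The 2 losses were compared directly, as the difference between the effect of HP1β/γ/αTKO against WT set A and that of SETDB1KO against SETDB1FF over 12 libraries. The difference passed the test for all 10 genes, where 64.9% of the 18569 genes tested did. Trp53 had effects of opposite sign, with a difference of 1.04 (SE 0.035, adjusted p = 2.2e-17), as did Sesn2 at −0.99 (SE 0.052) and Zmat3 at −0.61 (SE 0.045). Cdkn2a (−2.09, SE 0.24), Trp53inp1 (−1.22, SE 0.039), Cdkn1a (−0.94, SE 0.077) and Ccng1 (−0.60, SE 0.044) rose more on SETDB1 loss. Cdkn2a did so from a lower control mean, 0.86 CPM in SETDB1FF cells against 4.5 CPM in WT set A. Its mean reached 9.71 CPM in SETDB1KO cells and 12.35 CPM in HP1β/γ/αTKO cells. In TPM, where both losses raised the median of all genes, Trp53 (0.95 and 0.08) and Zmat3 (0.18 and 0.73) no longer differed in sign, while Sesn2 did (−0.34 and 0.77). The differences themselves passed in TPM for all of the genes (Trp53 0.86, Zmat3 −0.55) except Bax, at 0.11 (adjusted p = 0.0835). Mdm2 (0.58, SE 0.039), Bbc3 (0.71, SE 0.096) and Bax (0.44, SE 0.049) had the larger value after HP1 loss. After TMM scaling, the adjusted p of the 9 differences other than that of Trp53 ran up to 8.52e-07. The lines, the controls and the sets of libraries differ between the 2 losses, so genotype and line cannot be told apart.

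**Figure D3:**
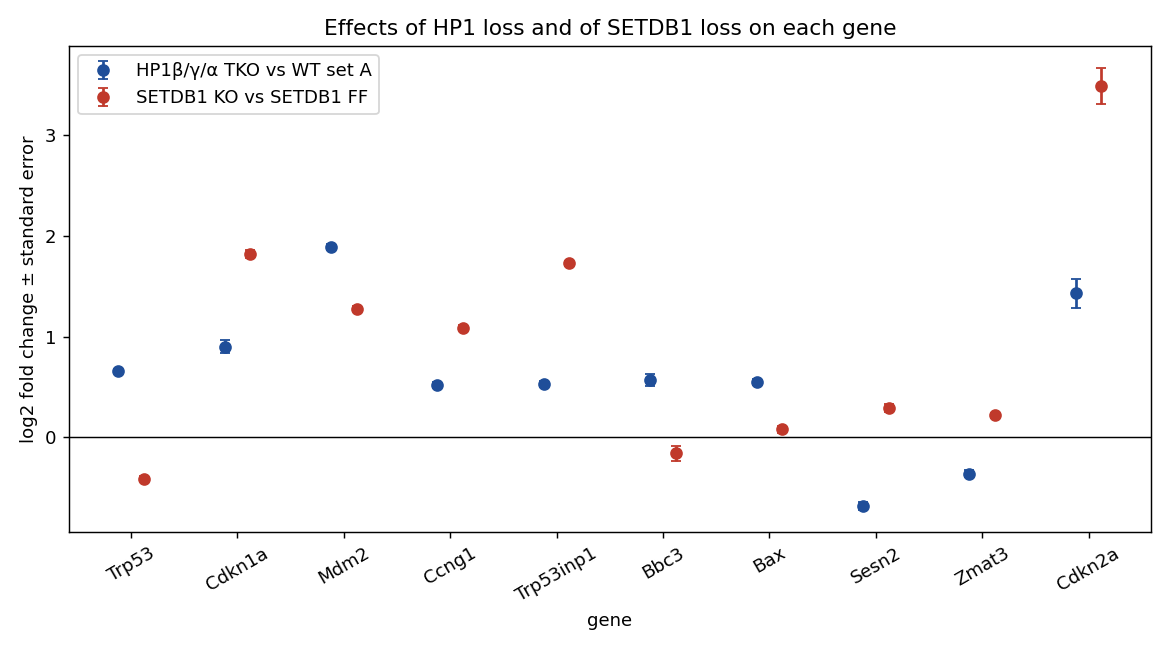
log2 fold change with its standard error for each gene after HP1 loss (blue, against WT set A) and SETDB1 loss (red, against SETDB1FF), 3 libraries against 3 for each point. After TMM scaling Trp53 is at 0.66 and −0.41 (0.95 and 0.08 in TPM), and Cdkn1a at 0.90 and 1.82.

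In the single mutants no gene of the 10 had a log2 fold change beyond 1 in either direction. In HP1βKO ESCs 9 of 10 genes rose and none fell, where 24.7% of 15845 genes rose and 26.4% fell, and 9.10% of all genes were deregulated. The median was 0.47 for the 10 genes and −0.03 for all genes. Cdkn2a had the largest change, with 9.02, 8.13 and 9.69 CPM against 5.18, 4.25 and 4.09 CPM (log2 fold change 0.97, SE 0.15, adjusted p = 0.000227). Ccng1 reached its highest level of the 11 conditions, at 384.1, 395.7 and 410.1 CPM against 226.2, 213.9 and 234.2 CPM (log2 fold change 0.80, SE 0.046, adjusted p = 2.28e-07). Trp53 (log2 fold change 0.67), Mdm2 (0.65), Bax (0.51) and Trp53inp1 (0.42) followed. Trp53 had a mean of 599.1 CPM, and its libraries overlapped those of HP1β/γ/αTKO cells. Cdkn1a was the gene that did not pass, with 30, 30 and 27.7 CPM against 28.8, 25.5 and 25.6 CPM (log2 fold change 0.12, adjusted p = 0.188). The small rises of Bbc3 (0.20) and Zmat3 (0.15) did not pass without HP1βKO replicate 1 (Bbc3, 0.17), HP1βKO replicate 2 (Zmat3, 0.14), WT set A replicate 1 (0.21 and 0.13), WT set A replicate 2 (Zmat3, 0.15) or WT set A replicate 3 (Bbc3, 0.16).

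In HP1αKO ESCs 5 genes rose and 3 fell, where 22.8% and 22.2% of 15841 genes did so and 4.87% were deregulated. The median was 0.04 against −0.01 for all genes. Cdkn2a rose from a mean of 4.5 to 7.17 CPM (log2 fold change 0.68, SE 0.15, adjusted p = 0.00118), and the other rises were between 0.15 and 0.20. Sesn2 had the largest fall, −0.38 (adjusted p = 6.33e-08). The falls of Mdm2 (−0.11) and Bbc3 (−0.21) did not pass without HP1αKO replicate 3 or WT set A replicate 3 (Mdm2, −0.10 in both), nor without HP1αKO replicate 2 or WT set A replicate 2 (Bbc3, −0.17 in both). With all 33 libraries in one fit only 2 genes rose and 1 fell. The calls of Trp53 (0.15), Trp53inp1 (0.14), Bax (0.19), Mdm2 (−0.12) and Bbc3 (−0.22) were then lost, with adjusted p from 0.0776 to 0.416. With the TPM values 3 rose and 1 fell. Of all genes, 865 were deregulated in the one fit and 225 in TPM, against 772 in the fit of 6 libraries. Shares of all genes that rose or fell were not counted under these settings. In HP1γKO ESCs 5 rose and 3 fell as well, where 23.4% and 23.3% of 15823 genes did so and 5.59% were deregulated. The median was 0.08 against −0.01. Cdkn2a rose to a mean of 8.58 CPM (log2 fold change 0.93, SE 0.16, adjusted p = 7.16e-05), and Ccng1 by 0.35. Zmat3 fell by 0.13, which did not pass without HP1γKO replicate 3 or WT set A replicate 3 (−0.10 in both), whereas Bbc3 (−0.16) passed without WT set A replicate 3 (−0.21, adjusted p = 0.0318). Cdkn1a fell by 0.30 on the log2 scale, with 23.1, 21.5 and 20.2 CPM, its lowest mean of the 11 conditions, though it overlapped the HP1αKO libraries. With all 33 libraries in one fit, Trp53inp1 (0.25), Bax (0.26) and Zmat3 (−0.13) did not pass, which left 3 up and 2 down. There 1013 of all genes were deregulated, against 884 in the fit of 6 libraries. Small falls depended on the control. Against WT set B, Sesn2 had a log2 fold change of −0.02 in HP1αKO and 0.12 in HP1γKO ESCs, and Mdm2 one of 0.10 and 0.18.

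Cdkn1a rose in 2 of the 3 DKO lines. In HP1β/αDKO ESCs, 8 of the 10 genes rose and none fell against set A, where 21.3% of 15854 genes rose and 22.1% fell, and no gene of the 10 had a log2 fold change beyond 1, while 8.15% of all genes were deregulated. The median was 0.21 against −0.00 for all genes. Cdkn1a led, with a log2 fold change of 0.69 (SE 0.062, adjusted p = 6.96e-08), and Ccng1, Mdm2, Bbc3 and Trp53inp1 had values from 0.30 to 0.38. With 1 library left out, Bax and Sesn2 (both 0.12) passed only without HP1β/αDKO replicate 1. They were at 0.09 to 0.13 without HP1β/αDKO replicate 2 or 3 or any of the 3 set A libraries. With all 33 libraries in one fit Trp53, Bax and Sesn2 did not pass (0.14, 0.13 and 0.12), and in TPM Bbc3, Bax and Sesn2 did not (0.29, 0.08 and 0.10), which left 5 genes up in either case. Of all genes, 1479 were deregulated in the one fit and 480 in TPM, against 1292 in the fit of 6 libraries. Cdkn2a stayed near the control, at 4.63, 4.72 and 3.99 CPM (log2 fold change −0.03, adjusted p = 0.917), although it was higher in both single mutants.

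In HP1β/γDKO ESCs 5 genes rose and 1 fell against set B, where 26.0% of 16263 genes rose, 25.7% fell and 11.9% were deregulated. The median was 0.21 against 0.00. Cdkn1a had 49.2, 52.2 and 50.7 CPM against 29, 31 and 29.8 CPM in set B (log2 fold change 0.76, SE 0.055, adjusted p = 1.88e-08), a level that overlapped that of HP1β/γ/αTKO cells. Ccng1 rose by the same amount (0.76, SE 0.045), and Trp53inp1 by 0.51. Trp53 fell, with 309.5, 314 and 317.9 CPM against 334.2, 388.8 and 380.9 CPM (log2 fold change −0.23, SE 0.053, adjusted p = 0.00195). Cdkn2a was at 4.91, 5.45 and 5.46 CPM against 5.16, 5.86 and 4.74 CPM, and the groups overlapped (log2 fold change 0.01, adjusted p = 0.978). The Bbc3 rise of 0.32 fell to 0.04 (adjusted p = 0.585) against set A.

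HP1γ/αDKO ESCs showed another pattern, on libraries that varied more. Bbc3 and Cdkn2a were deregulated, in opposite directions. Against set B 1 gene rose and 4 fell, where 20.2% of 15841 genes rose, 26.3% fell and 23.1% were deregulated, and the median was −0.19 against −0.02. Bbc3 had 8.76, 11.9 and 7.61 CPM against 22, 26.5 and 23.6 CPM (log2 fold change −1.40, SE 0.17, adjusted p = 0.000652), which is its lowest level of the 11 conditions. Cdkn2a had 10.6, 18.7 and 9.38 CPM against 5.16, 5.86 and 4.74 CPM (log2 fold change 1.24, SE 0.25, adjusted p = 0.00656). Replicate 2 was the highest library of the group for Cdkn2a, Bax, Trp53, Bbc3 and Cdkn1a and the lowest for Trp53inp1, Mdm2, Ccng1 and Zmat3. Without this library 2 genes rose and 5 fell, and 1 gene was deregulated. Of all genes, 3802 were then deregulated, against 3657 with it, and the shares that rose or fell were not counted. Cdkn2a then had a log2 fold change of 0.92 (adjusted p = 5.46e-05) and Bbc3 one of −1.56 (adjusted p = 4.32e-08). Trp53inp1 (−0.90, and −0.64 without replicate 2), Zmat3 (−0.53 and −0.41) and Mdm2 (−0.34 and −0.24) fell in both fits. Bax had 141.3, 291.7 and 151.4 CPM against 121.3, 126 and 116.2 CPM, a log2 fold change of 0.63 (adjusted p = 0.0724) that became 0.27 (adjusted p = 0.000971) without replicate 2. The count of genes past the test was sensitive to the libraries used, at 3 without WT set B replicate 1, 2 without WT set B replicate 2 and 2 without WT set B replicate 3. Trp53inp1 did not pass without any one of these (−0.84, −0.96 and −0.92), Zmat3 not without set B replicate 2 or 3 (−0.53 and −0.51), and Mdm2 not without any single library other than HP1γ/αDKO replicate 2 (−0.33 to −0.39). Cdkn1a (−0.28, adjusted p = 0.0856) passed without HP1γ/αDKO replicate 2 (−0.35), and Bax without HP1γ/αDKO replicate 1 (0.81, adjusted p = 0.0328). In this group the feeder markers summed to 23.6 to 29.8 CPM, against 93.9 to 105.5 CPM in set B, and the ESC markers to 6129 to 8845 CPM against 3768 to 3826. Their part in these differences was not tested.

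The WT sets differed from each other in 4 of the 10 genes. All 4 were lower in set B, and none rose, where 12.3% of 16008 genes were higher and 12.5% lower in set B. No gene of the 10 had a log2 fold change beyond 1, and 5.68% of all genes were deregulated. Sesn2 had the largest difference, −0.35 (SE 0.048, adjusted p = 6.72e-05), then Bbc3 at −0.28, Mdm2 at −0.20 and Ccng1 at −0.19. The median was −0.06 against 0.00. Cdkn1a, Trp53, Trp53inp1, Bax, Zmat3 and Cdkn2a did not pass, with log2 fold changes from −0.08 to 0.23. Bbc3 did not pass without set B replicate 3 (−0.27) or set A replicate 1 or 2 (−0.27 and −0.24), nor Ccng1 without set A replicate 3 (−0.16), and Cdkn1a passed without set A replicate 1 (0.23, adjusted p = 0.0457). In TPM, Sesn2 (−0.30) and Cdkn1a (0.24, adjusted p = 0.0309) passed, and Mdm2, Ccng1 and Bbc3 did not (−0.07, −0.15 and −0.31).

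Other genes of the pathway were read from lists, described by counts and medians. Each count stands against the shares of all genes that rose and fell, 41.7% and 39.9% in HP1β/γ/αTKO cells and 40.2% and 38.8% in SETDB1KO cells, and all fold changes of list genes are after TMM scaling. Of 30 other p53 targets, 18 rose and 10 fell in HP1β/γ/αTKO cells (median log2 fold change 0.49, against 0.04 for all genes). Of the 29 tested in SETDB1KO cells, 20 rose and 8 fell (median 0.42, against 0.01). Plk2, a stress-induced kinase, was up in both, from 26.8 to 132.3 CPM in HP1β/γ/αTKO (log2 fold change 2.27, SE 0.048) and from 17.2 to 142.6 CPM in SETDB1KO cells (3.05, SE 0.049). Perp, an effector in the plasma membrane, and Ppm1d, a phosphatase that switches the p53 response off, were deregulated upwards in HP1β/γ/αTKO cells (1.78 and 1.72). In SETDB1KO cells Perp had a log2 fold change of 0.01 (adjusted p = 0.839) and Ppm1d one of −0.17. Pml, which organizes nuclear bodies, fell in the former (−1.55) and rose in the latter (1.67). Eda2r rose by 1.89 on the log2 scale in SETDB1KO cells, where Gadd45a, a stress sensor, fell from 20.2 to 4.74 CPM. Ddit4, an inhibitor of mTORC1, fell by 1.70 in HP1β/γ/αTKO cells.

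In the other mutants the median of the same list varied. It was 0.47 in HP1βKO ESCs, where 20 of 29 rose and 4 fell, led by Plk2 (1.58), Perp (1.48), Zfp365 (1.39) and Ptprv (1.20). It was 0.19 in HP1β/γDKO ESCs (15 rose, 4 fell), where Btg2, an antiproliferative gene, rose by 1.33, and 0.17 in HP1β/αDKO ESCs (11 rose, 2 fell), where Gadd45a rose by 1.34. In HP1γ/αDKO ESCs it was −0.30 (3 rose, 13 fell), with Ddit4 at −2.02, Trp73 at −1.43, Apaf1 at −1.23 and Pml at −1.09. The median was 0.03 in HP1αKO and 0.06 in HP1γKO ESCs, with 9 up and 8 down, and 13 up and 8 down. Of all genes, 24.7% rose and 26.4% fell in HP1βKO, 26.0% and 25.7% in HP1β/γDKO, and 21.3% and 22.1% in HP1β/αDKO ESCs. The shares were 20.2% and 26.3% in HP1γ/αDKO, 22.8% and 22.2% in HP1αKO, and 23.4% and 23.3% in HP1γKO ESCs. The medians of all genes lay between −0.03 and 0.00. These comparisons share control libraries within each WT set.

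Of 15 regulators of p53, 6 rose and 9 fell in HP1β/γ/αTKO cells, where 41.7% of all genes rose and 39.9% fell. In SETDB1KO cells 9 rose and 6 fell, where 40.2% and 38.8% did. Mdm4, which binds and restrains p53, fell by 0.72 on the log2 scale in the former and rose by 0.56 in the latter. Chek2, a kinase that activates p53 after DNA breaks, fell in both, with log2 fold changes of −2.13 (SE 0.06) and −1.28 (SE 0.06). Rchy1, a ubiquitin ligase for p53, rose by 1.94 and Sirt1, a deacetylase of p53, by 1.06 in HP1β/γ/αTKO cells, where Hipk2, a p53 kinase, fell by 1.40. Usp10, which deubiquitinates p53, fell by 1.02 in SETDB1KO cells.

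Among 5 other inhibitors of cyclin-dependent kinases, 3 rose and 1 fell in HP1β/γ/αTKO cells and 2 rose and 1 fell in SETDB1KO cells. These are few genes, and the share that rose in SETDB1KO cells is near the 40.2% of all genes. Cdkn2c (p18) rose from 0.423 to 4 CPM (log2 fold change 3.20, SE 0.32) and Cdkn1c (p57) fell from 80.4 to 16.2 CPM (−2.34, SE 0.065) in HP1β/γ/αTKO cells. Cdkn2b (p15), the neighbour of Cdkn2a on chromosome 4, rose from 0.183 to 1.31 CPM in SETDB1KO cells (2.80, SE 0.39, adjusted p = 3.68e-06), and had 3.96 against 2.9 CPM in HP1β/γ/αTKO cells (0.42, adjusted p = 0.0571). Cdkn1b (p27) rose by 0.66 in HP1β/γ/αTKO cells and fell by 0.72 in SETDB1KO cells.

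Of 24 cell cycle genes, 13 fell and 7 rose in HP1β/γ/αTKO cells (median −0.31), and 19 fell and 3 rose in SETDB1KO cells (median −0.49). Of all genes 39.9% fell in the former and 38.8% in the latter. The cyclins of G1 did not move alike. Ccnd1 fell from 135.9 to 24.5 CPM in HP1β/γ/αTKO cells (log2 fold change −2.50, SE 0.046) and by 0.85 in SETDB1KO cells, and Ccnd3 from 767.2 to 109.2 CPM in SETDB1KO cells (−2.82, SE 0.026). Ccne1 fell in both, by 1.11 and 1.93 on the log2 scale, while Ccne2 rose by 1.09 in SETDB1KO cells. Cdk1 and Aurkb, of mitosis, each fell by 1.11 in HP1β/γ/αTKO cells, whereas the replication genes Mcm2 and Mcm5 rose by 0.70 and 0.85.

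The BCL2 family and caspases list had 17 genes. In HP1β/γ/αTKO cells 10 of 16 tested fell and 3 rose (median −0.62), where 39.9% of all genes fell and 41.7% rose, with the survival gene Bcl2l2 at −1.91, the BH3-only genes Bmf and Bik at −1.44 and −1.41, and the initiator Casp8 at 1.51. In SETDB1KO cells 8 of 15 tested fell and 5 rose (median −0.19), where 38.8% and 40.2% of all genes did. There Casp9, the initiator caspase of the apoptosome, rose from 21.5 to 140.9 CPM (log2 fold change 2.71, SE 0.043) and Casp8 by 1.92, and Hrk, a BH3-only gene, fell by 2.73. ATF4 targets were read because Sesn2 and Ddit4 are also known targets of ATF4, the factor of the integrated stress response. The list of 15 genes includes Atf4 itself. Of the 15, 10 fell and 4 rose in HP1β/γ/αTKO cells (median −1.68), and 12 fell and 2 rose in SETDB1KO cells (median −1.83). Nupr1 fell in both, by 3.68 and 4.96 on the log2 scale, and Trib3 by 3.17 and 2.24. Slc7a11 and Chac1 fell by 3.68 and 2.88 in HP1β/γ/αTKO cells, and Vldlr and Phgdh by 3.18 and 2.23 in SETDB1KO cells. The genes of the list that rose in HP1β/γ/αTKO cells were the stress factors Atf3 (log2 fold change 1.99) and Ddit3 (1.78) and the phosphatase subunit Ppp1r15a (1.45), which were deregulated, and Atf4. In SETDB1KO cells Ddit3 (0.76) and Ppp1r15a (0.39) rose. Atf4 mRNA itself rose by 0.68 in HP1β/γ/αTKO cells and fell by 0.72 in SETDB1KO cells. The part of ATF4 in the Sesn2 values was not tested.

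**Figure D4:**
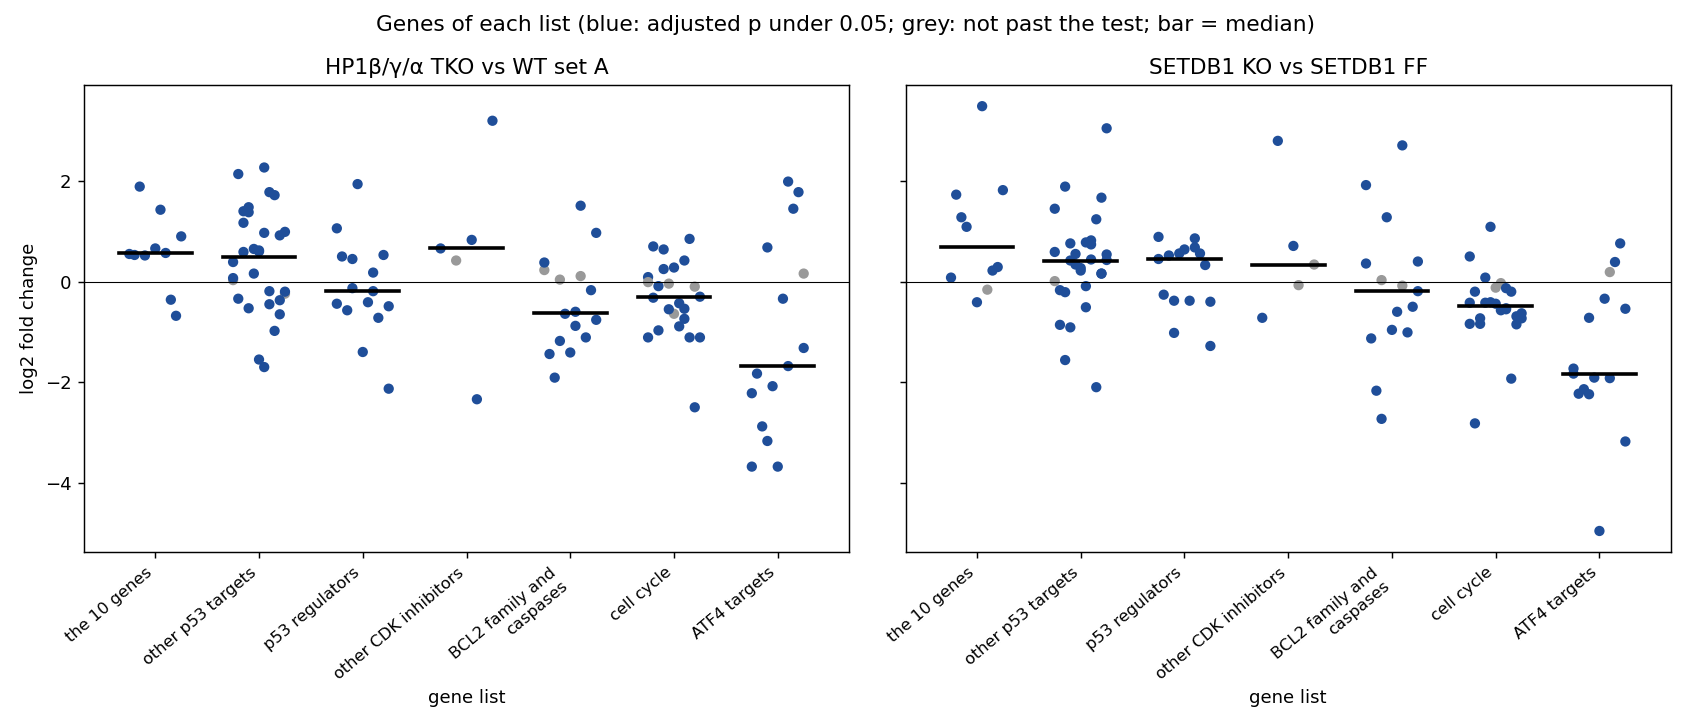
log2 fold changes of the genes of each list after HP1 loss (left) and SETDB1 loss (right), with blue points past an adjusted p of 0.05, grey points not past it, and a bar at each median. The medians of the 10 genes (0.56 and 0.69) and of the other p53 targets (0.49 and 0.42) lie above 0, and those of the cell cycle (−0.31 and −0.49) and ATF4 lists (−1.68 and −1.83) below it.

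The genes most like Cdkn1a, Cdkn2a and Trp53 were taken as those with the highest Pearson r of log2(CPM + 1) over the 11 condition means, among 11442 genes with a mean of at least 5 CPM. For Cdkn1a these were Shoc2 (r = 0.927), Ccdc66 (0.923), Hspa4l (0.918), Brdt (0.914) and Mael (0.912). Brdt and Mael are known for expression in the germline. For Cdkn2a they were Med10 (0.919), Clptm1 (0.896), Vps53 (0.879), Maml1 (0.877) and Retreg3 (0.876), and for Trp53 Copg1 (0.974), Ccdc22 (0.936), Rrp12 (0.926), Thrap3 (0.92) and Dhps (0.918). These values describe 11 points that share control sets and lines, and they were picked as the highest of many.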

How the data were processed

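RNA-seq libraries of 11 conditions were grouped by their labels. Per the labels, reads were processed with TopHat2 2.1.1, RSEM and edgeR on GRCm38.p5. For each gene the authors deposited expected counts, which are not normalized and of which 12.9% are not whole, and TPM values, which the authors scaled per length and depth and which were used here to order genes within WT set A and as an alternative. The control columns that several tables repeat were identical (30 of 30). The authors' fold changes and adjusted p values in these tables were not used. Library kits are named differently in the labels (TruSeq RNA) and in the study's methods (stranded total RNA), and the strand setting of the counting is not given in the sources used here. Cdkn1a shares 273 exonic bases with a gene on the other strand, and Bax 192 with one on its own, so reads there are uncertain.

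Expected counts were rounded, and each comparison was fitted on its 6 libraries in edgeR 4.0.16 under R 4.3.3, with filterByExpr (minimum count 10), TMM, glmQLFit and glmQLFTest, and Benjamini-Hochberg adjustment over all genes tested. The quoted standard error is the log2 fold change divided by the root of F. CPM were computed after TMM scaling of all 33 libraries. The authors used DESeq2, which was run here as an alternative (version 1.42.0). Other alternatives were RLE factors, library totals, other filters, 1 fit of all libraries, a replicate block, the other WT set, each library left out, and limma 3.58.1 on log2(TPM + 1). That on TPM, and those for genes of the other lists, were chosen after seeing the data. Fits were checked first on simulated counts with known changes. Of each other list, up to 4 genes with the largest change per comparison were eligible to be named (deregulated, groups apart, at least 1 CPM in the higher group). Mdm4, Cdkn1b, Mcm2, Mcm5, Atf4, Atf3, Ddit3 and Ppp1r15a were named after their values were seen. Members and lists were chosen with earlier results of these data known. Genes were placed with GENCODE M21 (GRCm38). With total counts of at least 17330936, only Cdkn2a in SETDB1FF rested on few reads among the 10 genes (lowest 13). Some named list genes had lower means still and rested on few reads too. Examples are Cdkn2b (0.183 CPM) and Col6a1 (0.236 CPM) in SETDB1FF cells and Cdkn2c (0.423 CPM) in WT set A.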

Additional observations from a re-analysis of the deposited data

Results flagged for a closer look

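The effect of HP1β/γ/αTKO against WT set A differed from that of SETDB1KO against SETDB1FF, in a test of the difference over 12 libraries, for each of the 10 genes. Given as HP1 effect minus SETDB1 effect on the log2 scale, the differences were 1.04 for Trp53, 0.71 for Bbc3, 0.58 for Mdm2 and 0.44 for Bax, and −2.09 for Cdkn2a, −1.22 for Trp53inp1, −0.99 for Sesn2, −0.94 for Cdkn1a, −0.61 for Zmat3 and −0.60 for Ccng1. In TPM the Bax difference did not pass (0.11, adjusted p = 0.0835). Since 64.9% of all genes tested passed the same test, this is no feature of these genes alone. Groups of 3 libraries were not searched for outlying libraries by a formal rule.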

How the results depend on the processing

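Among 1470 values of the 10 genes under alternatives, 1339 kept their sign and their side of the threshold, 80 no longer passed, 17 newly passed and 34 changed sign. Of 160 values for the differences between HP1 and SETDB1 loss, 159 kept both, the exception being Bax in TPM (0.11), and the number of genes that differed was 10 with any library left out, from 10 to 10. With all 33 libraries in 1 fit, the number of genes past the test became 3 in HP1αKO, 5 in HP1γKO and 5 in HP1β/αDKO ESCs. With TPM, added after seeing the data, 4 genes passed in HP1αKO, 5 in HP1β/αDKO and 2 between WT sets. In HP1β/γ/αTKO cells 4 were deregulated in TPM, where 5166 of 17501 genes were. Shares of all genes past the test were not counted under the alternatives. Against the other WT set, 1 gene was deregulated in HP1βKO ESCs. With 1 library left out, the number past the test ran from 7 to 8 in HP1αKO, 7 to 9 in HP1βKO, 7 to 8 in HP1γKO, 6 to 8 in HP1β/αDKO, 2 to 7 in HP1γ/αDKO, 6 to 6 in HP1β/γDKO, 10 to 10 in HP1β/γ/αTKO against WT and 9 to 10 against HP1β/αDKO, 8 to 9 in SETDB1KO and 3 to 4 between WT sets. The number deregulated ran from 0 to 1 in HP1βKO and HP1γKO, 1 to 3 in HP1γ/αDKO, 2 to 2 in HP1β/γ/αTKO (both controls), 5 to 5 in SETDB1KO and 0 to 0 elsewhere. The cause was not tested.

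Against the other WT set, signs changed for Mdm2 (0.10 in HP1αKO, 0.18 in HP1γKO), Bbc3 (0.08 and 0.14), Sesn2 (0.12 in HP1γKO, −0.30 in HP1γ/αDKO, −0.31 in HP1β/γDKO), Cdkn1a (−0.05 in HP1βKO), Col1a2 (−0.69 in HP1αKO, −0.18 in HP1γKO, −0.26 in HP1β/αDKO) and Col1a1 (−0.05 in HP1γKO). With library totals, which moved the median of all genes to 0.28 in HP1β/γ/αTKO and SETDB1KO cells and −0.19 in HP1γ/αDKO ESCs, signs changed for Trp53 (−0.10) and Sesn2 (−0.13) in HP1γ/αDKO and Bbc3 (0.11) in SETDB1KO. With TPM, which moved the median of all genes to 0.31 in HP1β/γ/αTKO (0.33 against HP1β/αDKO), 0.40 in SETDB1KO and −0.29 in HP1γ/αDKO, signs changed for Zmat3 (0.00 in HP1αKO, 0.18 in HP1β/γ/αTKO against WT, 0.24 against HP1β/αDKO, 0.05 between WT sets), Mdm2 (0.02 in HP1γKO), Trp53 (0.08 in SETDB1KO, −0.31 in HP1γ/αDKO, 0.00 between WT sets), Bbc3 (0.48 in SETDB1KO), Sesn2 (−0.32 in HP1γ/αDKO, −0.02 in HP1β/γDKO) and Cdkn2a (−0.04 in HP1β/γDKO). With 1 library left out they changed only for values that passed in neither fit, namely Cdkn2a in HP1β/αDKO (−0.09 to 0.08) and HP1β/γDKO (−0.07 to 0.09), Trp53 in HP1γ/αDKO (−0.03 to 0.15), and Trp53 (−0.06 to 0.05), Trp53inp1 (−0.11 to 0.00) and Zmat3 (−0.03 to 0.02) between WT sets.

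Replicate numbers did not pair the libraries, since same-numbered deviations correlated between −0.046 and 0.074. With a replicate block, 1 call was lost, Mdm2 in HP1γ/αDKO ESCs (−0.35, adjusted p = 0.0736).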
